A study of Mus musculus with 22 samples.

Results

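Chemokine genes and the genes of their receptors were followed in mouse liver. The members were every gene of the deposited value table whose mouse symbol, looked up by Entrez ID, begins with Ccl, Cxcl, Cx3cl, Xcl, Ccr, Cxcr, Cx3cr or Xcr and then a digit, with Ccrn4l and the Ccrl symbols left out. This gave 49 of 13392 genes, of which 31 encode ligands and 18 encode receptors. Ccl19, Ccl21a to Ccl21d, Ccl26, Ccl27a, Ccl27b, Cxcl12 and Cxcr1 were not analysed here.

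The study used male C57BL/6J mice in which 1 injection of the carcinogen N-nitrosodiethylamine (DEN) and weekly carbon tetrachloride (CCl4), a solvent that injures hepatocytes, led to liver fibrosis and hepatocellular carcinoma. Of these damaged livers, 10 came from mice given nintedanib at 50 mg/kg and 9 from mice given vehicle, both for 5 weeks and both begun after fibrosis was established. The remaining 3 livers were healthy controls, from mice that received saline and oil in place of DEN and CCl4 and, by their titles, vehicle. Nintedanib inhibits the receptor kinases for vascular endothelial, platelet-derived and fibroblast growth factors, and the liver sampled was non-tumour tissue.

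Chemokines are small secreted proteins that direct the migration of leukocytes through receptors coupled to G proteins. In injured liver, hepatocytes, Kupffer cells, endothelium and stellate cells are all known sources of them. Monocytes are known to enter through CCR2, neutrophils through CXCR2, and T and natural killer cells through CXCR3 and CXCR6. CXCL13 draws B cells through CXCR5, while CCR7 and CXCR4 serve the traffic of lymphocytes and stem cells at rest.

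Each mouse gave 1 array with 1 log2 value per gene, made by the robust multiarray average (RMA), and each difference given is between group means on that log2 scale. A probe set's value does not rank genes against each other, so differences are taken only between mice for the same gene. Levels across genes serve only as a rough mark of dim members and to choose which members to detail. Hepatocyte markers, of which 4 of 12 had a value, averaged 10.0 to 10.6 per mouse under nintedanib, 10.0 to 10.5 under vehicle and 10.2 to 10.7 in controls. Of these 4, 1 lay lower in every vehicle mouse than in every control, and 0 lay higher. Mice are called by the number in their title. Nintedanib mice 89 and 91 had the lowest median correlations with the other arrays, at 0.950 and 0.948, and high array medians of 3.05 and 3.09 within a range of 2.83 to 3.09 over all arrays. Title numbers fall into runs: controls 4, 49 and 50, vehicle mice 76 to 81 and nintedanib mouse 82, then nintedanib mice 83 to 91 and vehicle mice 92 to 94. The arrays of the later run, mice 83 to 94, stood apart from the earlier ones in earlier results of these data, no label calls the runs a batch, and the controls were placed with the earlier run. A fit with run as a term beside group, here called the run block, is given beside a result where it changes a call, and for some members whose difference it moves.

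The median of each array over all genes gives a mark for how near the bottom of the scale a probe set lies. On all 22 arrays, 12 members lay above the array's median over all genes, and 11 of these were ligands. On none of the arrays were 6 ligands and 5 receptors above it, and 26 members lay above it on some arrays. Values near the bottom of the scale are compressed by RMA, so a difference in a dim member can be understated. The members varied between mice of 1 group about as much as other genes did, with a median standard deviation within groups of 0.262 against 0.238 over all genes. Cxcl13 and Cxcl1 varied most, with standard deviations within groups of 1.06 and 1.02 that ranked 19 and 25 of 13392. Cxcr2 (0.67) and Ccl5 (0.57) ranked 108 and 180. For Cxcl13 the standard deviation was 1.59 in vehicle mice, 0.34 under nintedanib and 0.32 in controls.

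**Figure D1:**
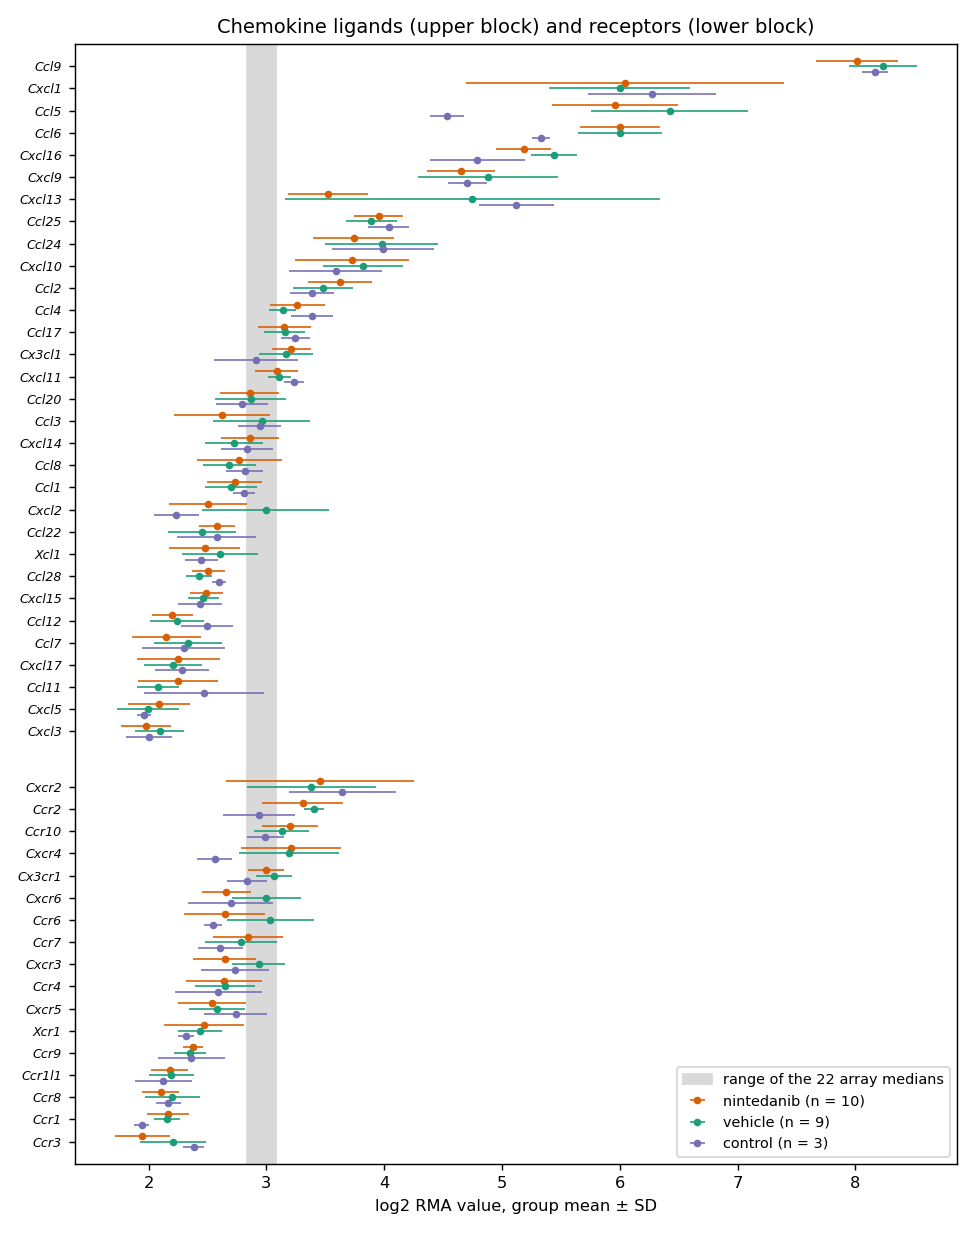
Group mean and SD of the log2 RMA value of 48 of the 49 members, with ligands in the upper block and receptors in the lower one, for 10 nintedanib, 9 vehicle and 3 control mice. The grey band spans the 22 array medians, from 2.83 to 3.09, and most receptors lie in or below it, while Ccl5 is the member whose control mean stands farthest to the left of both damaged groups.

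In damaged livers of vehicle mice, the T cell and monocyte attractant Ccl5 and the CXCR6 ligand Cxcl16 rose against healthy liver, and no chemokine or receptor gene fell. With limma and Benjamini-Hochberg adjustment over all genes, 2 of 49 members were higher at an adjusted p under 0.05 and 0 were lower, where 1.55% of all genes were higher and 0.971% lower. None of the 18 receptors passed. Before adjustment, 7 members were higher (Ccl5, Cxcl16, Ccl6, Cxcl2, Ccr2, Cxcr4 and Ccr6) and 0 lower, against 6.65% and 7.3% of all genes. The members' median difference was 0.06, against -0.02 for all genes. Every vehicle mouse exceeded every control for 3 members (Ccl5, Ccl6 and Ccr6), where 2.49% of all genes did so, and 2.27% of genes but no member lay below. In a bulk sample, fewer cells of a type and less RNA per cell cannot be told apart, and the same holds for more.

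Nintedanib changed no chemokine or receptor gene against vehicle past the threshold. Here 0 of 49 members passed with limma, in a comparison in which 0.687% of all genes did. Before adjustment, 0 members were higher and 7 lower (Cxcr6, Cxcl13, Cxcl2, Ccr6, Cxcr3, Ccr3 and Cxcl16), against 5.26% and 5.32% of all genes. Treatment and run overlap here, as 9 of 10 nintedanib mice are of the later run and 6 of 9 vehicle mice of the earlier one. Within mice 83 to 94 the differences of Cxcr6, Cxcl13 and Cxcl2 shrank, and those of Ccr6 and Cxcr3 grew. The median difference was -0.01, against 0.01 for all genes. No member separated the groups completely, where 0.0672% of genes did so. For 38 of 49 members the 95% interval of the difference lay within 0.5 of 0, and for 48 within 1.0, the exception being Cxcl13. This fit has no run term, and differences of dim members can be understated, so narrow intervals do not show unchanged expression.

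Under nintedanib, Ccl5 was also the member that passed against healthy liver. That made 1 of 49 members higher and 0 lower, where 2.87% of all genes were higher and 2.99% lower. Before adjustment 6 members were higher (Ccl5, Ccl6, Cxcr4, Cxcl16, Ccr2 and Ccr1) and 3 lower (Ccr3, Cxcl13 and Ccl12), against 7.94% and 9.05% of all genes. Every nintedanib mouse exceeded every control for Ccl5 and Ccl6, where 2.47% of genes did so, and lay below every control for Cxcl13, where 2.44% did so. This comparison shares its controls with the one of vehicle mice and its nintedanib mice with the one above, so the 3 are not independent.

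**Figure D2:**
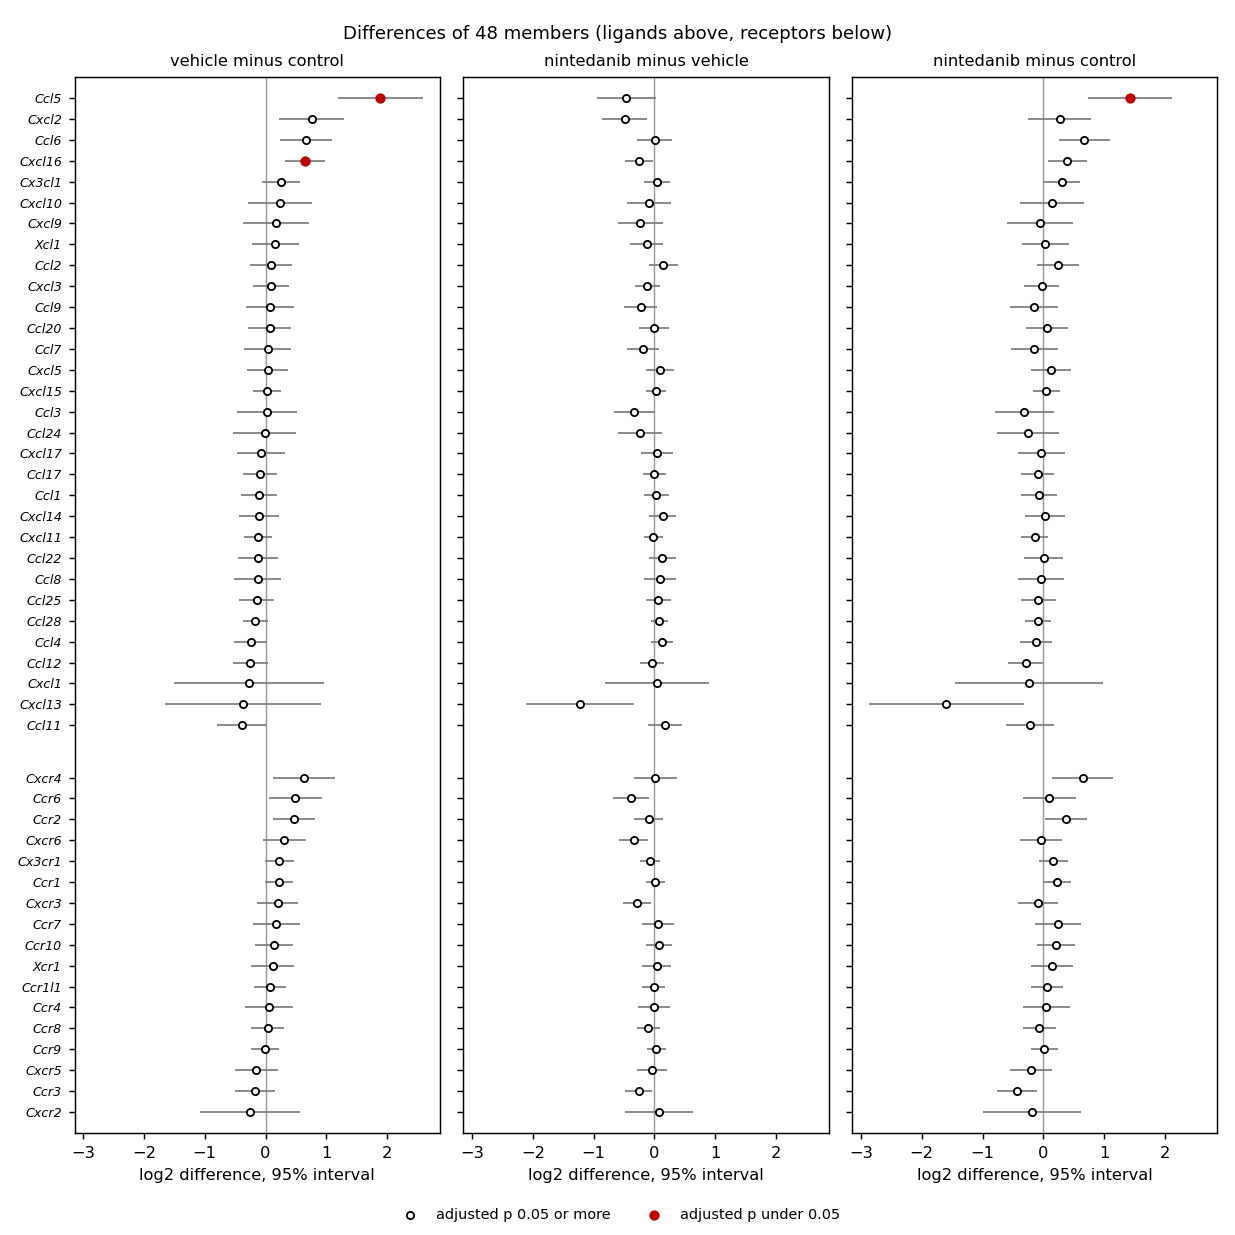
Log2 difference with its 95% interval for 48 of the 49 members in the 3 comparisons, ligands above and receptors below, ordered by the vehicle minus control difference. Filled points passed an adjusted p of 0.05 over all genes: Ccl5 (1.89) and Cxcl16 (0.65) in vehicle minus control, none in nintedanib minus vehicle, and Ccl5 (1.43) in nintedanib minus control.

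Ccl5 encodes a ligand of CCR1 and CCR3 that attracts T cells, natural killer cells and monocytes. Its lowest, median and highest values were 5.15, 6.07 and 6.72 under nintedanib and 5.42, 6.44 and 7.39 under vehicle. Control livers had 4.69, 4.41 and 4.50. Every damaged liver, with or without nintedanib, exceeded every healthy one, while the damaged groups overlapped widely. The vehicle mice averaged 1.89 ± 0.34 (SE) above controls, a 3.70-fold difference (limma, adjusted p = 0.00195). The nintedanib mice averaged 1.43 ± 0.34 above controls, a 2.69-fold difference (limma, adjusted p = 0.00992), which was not past the threshold without control 49 (adjusted p = 0.0525) or control 50 (adjusted p = 0.0574).

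Nintedanib and vehicle mice did not differ in Ccl5 past the threshold, at -0.46 ± 0.23 (limma, adjusted p = 0.498). Vehicle mice of the later run were also low against those of the earlier one, at -0.85 ± 0.30 (limma, vehicle mice alone, adjusted p = 0.277). Vehicle mice 92 to 94 averaged 5.86 ± 0.38 and vehicle mice 76 to 81 averaged 6.71 ± 0.60 (SD, n = 3 and 6). Nintedanib mice 83 to 91 averaged 6.01 ± 0.54 (SD, n = 9) and nintedanib mouse 82 had 5.52. Within mice 83 to 94 the difference was 0.15 ± 0.29 (limma, adjusted p = 0.976), so its sign turned.

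The inflammatory ligand genes Ccl3, Ccl4, Ccl6 and Ccl9 did not pass in any comparison. Ccl6, a monocyte attractant of rodents, ran from 5.60 over a median of 5.91 to 6.75 under nintedanib and from 5.59 over 5.98 to 6.57 under vehicle, and controls had 5.36, 5.25 and 5.39. As with Ccl5, no damaged liver reached down into the healthy range, though the gap was small. Ccl6 was 0.67 ± 0.20 above controls under nintedanib (limma, adjusted p = 0.0520) and 0.67 ± 0.21 above them under vehicle (adjusted p = 0.0897). With the run block the vehicle difference was 0.75 (adjusted p = 0.0494), and leaving out vehicle mouse 76, 81, 92 or 93 or nintedanib mouse 83 took the nintedanib difference past the threshold, at adjusted p values from 0.0354 to 0.0490. Its nintedanib minus vehicle difference was 0.00.

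Ccl9, the other rodent CCR1 ligand, had 7.62, 7.88 and 8.70 (lowest, median, highest) under nintedanib, 7.91, 8.22 and 8.83 under vehicle and 8.05, 8.27 and 8.18 in controls. The 3 groups overlapped, and the vehicle minus control difference was 0.07 (adjusted p = 0.929). Ccl3 and Ccl4, made by activated macrophages and lymphocytes, had group means between 2.63 and 3.39, and the receptor gene Ccr1 had means between 1.94 and 2.17. None of these 3 passed, and neither did Ccr1l1, a relative of Ccr1.

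**Figure D3:**
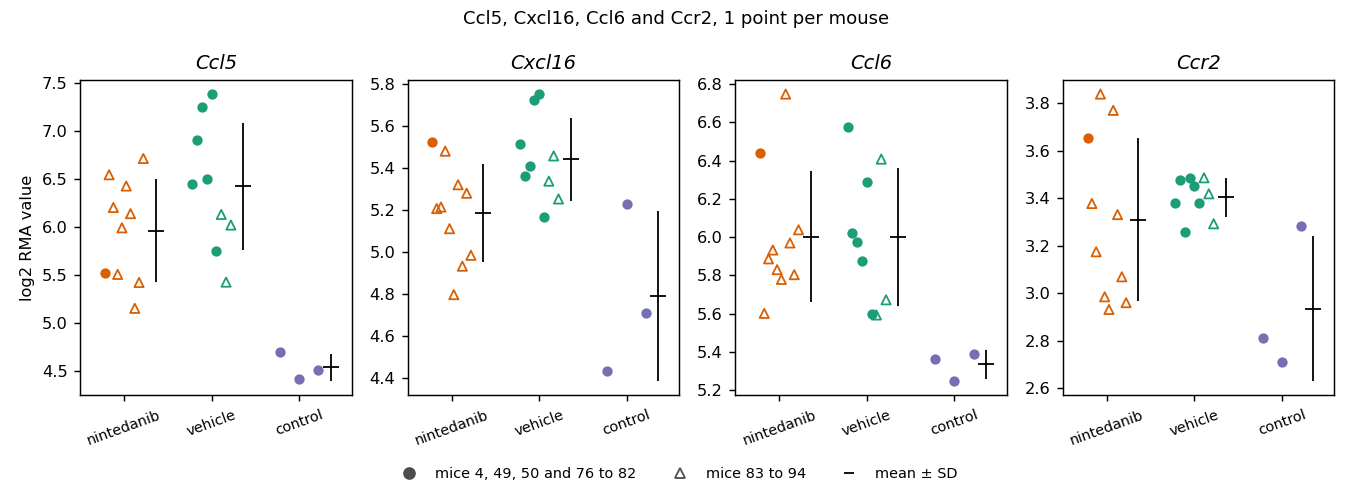
Log2 RMA value of Ccl5, Cxcl16, Ccl6 and Ccr2 in each nintedanib, vehicle and control mouse, with bars for the group mean and SD; filled circles are controls and mice 76 to 82, open triangles mice 83 to 94. Ccl5 and Ccl6 separate every damaged from every healthy liver, while control 49 lies among the damaged livers for Cxcl16.

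Cxcl16 encodes a membrane-bound ligand that holds T and natural killer T cells through CXCR6 and also takes up oxidised lipoprotein. It had 4.80, 5.21 and 5.52 (lowest, median, highest) under nintedanib and 5.17, 5.41 and 5.75 under vehicle, and 4.43, 5.23 and 4.71 in controls 4, 49 and 50. Control 49 alone overlapped the vehicle range, and only with the lowest vehicle mouse. The vehicle mice averaged 0.65 ± 0.16 above controls, a 1.57-fold difference (limma, adjusted p = 0.0236). That call was lost without control 4 (0.47, adjusted p = 0.261) or control 50 (0.61, adjusted p = 0.145), and with vehicle mice 76 to 81 alone (0.70, adjusted p = 0.0620). Without control 49 it was 0.87 (adjusted p = 0.00538).

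For Cxcl16 the nintedanib mean lay between those of the other groups, while the nintedanib range overlapped both of theirs. That mean was 0.39 ± 0.16 above controls (limma, adjusted p = 0.170), or 0.59 with the run block (adjusted p = 0.159). Against vehicle it was -0.26 ± 0.11 (adjusted p = 0.379). Without control 49 the difference from controls was 0.61 and passed (adjusted p = 0.0348). Its receptor gene Cxcr6 was the member with the smallest p between nintedanib and vehicle. Cxcr6 had 2.44, 2.58 and 3.02 under nintedanib, 2.60, 2.96 and 3.54 under vehicle, and 3.09, 2.38 and 2.62 in controls. The ranges of all 3 groups overlapped. The nintedanib minus vehicle difference was -0.34 ± 0.12 (limma, adjusted p = 0.219) and shrank to -0.07 (adjusted p = 0.978) within mice 83 to 94.

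The fractalkine and lymphotactin pairs showed no difference past the threshold. Cx3cl1, a membrane-bound attractant of monocytes, had means of 3.21, 3.17 and 2.91 in nintedanib, vehicle and control mice. Its receptor gene Cx3cr1, which marks patrolling monocytes, had 3.00, 3.06 and 2.83. For Xcl1 and for Xcr1, a dendritic cell receptor, group means lay between 2.32 and 2.61. All of their differences were between -0.13 and 0.30. With the run block Cx3cl1 was 0.59 above controls under nintedanib (limma, adjusted p = 0.0780), and Xcl1 differed by -0.30 between nintedanib and vehicle (adjusted p = 0.989).

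Monocyte recruitment through CCR2 was represented by 3 ligands and the receptor. Ccr2, which marks inflammatory monocytes, had 2.93, 3.25 and 3.84 under nintedanib, 3.26, 3.42 and 3.49 under vehicle, and 2.81, 2.71 and 3.28 in controls. The vehicle mice were tightly grouped, and 1 control, mouse 50, fell within their range. The vehicle minus control difference was 0.47 ± 0.17 (limma, adjusted p = 0.163), and it passed when nintedanib mice were left out of the fit (adjusted p = 0.0428). The ligand gene Ccl2 averaged 3.63 ± 0.27, 3.48 ± 0.26 and 3.39 ± 0.19 in nintedanib, vehicle and control mice (SD, n = 10, 9 and 3). Ccl2, Ccl7 and Ccl12 did not pass in any comparison.

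Markers of the cells that carry these receptors were counted in the same fit. Of 16 monocyte and macrophage markers with a value, 5 rose in vehicle mice against controls, led by Gpnmb (2.33, adjusted p = 0.000103), Lgals3 (1.07, adjusted p = 0.00129) and Ms4a7 (1.64, adjusted p = 0.00196), and 0 fell. The mean log2 value of that list per mouse ran from 5.39 to 6.22 under nintedanib, 5.45 to 6.01 under vehicle and 4.85 to 5.13 in controls, without overlap between damaged and healthy livers. Of 10 neutrophil markers, S100a8 (1.93, adjusted p = 1.97e-05) and S100a9 (1.35, adjusted p = 0.0128) rose, and the list mean ran from 3.44 to 4.28, 3.56 to 4.17 and 3.04 to 3.46 in the same groups. Among T cell markers 0 of 14 passed, and the list mean ran from 2.87 to 3.22, 2.97 to 3.29 and 2.92 to 3.07. Of 12 natural killer and cytotoxic markers 1 rose, Klrd1 (0.84, adjusted p = 0.0166), with list means of 2.81 to 3.24, 2.85 to 3.17 and 2.66 to 2.80. The differences of 4 of these 12 were negative, down to -0.34, and none of the 4 passed.

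Some markers of resident liver cells known to make chemokines changed too. All 13 stellate cell and fibroblast markers had positive differences in vehicle mice against controls, and 5 rose, among them Col1a2 (1.96, adjusted p = 4.99e-07), Lum (1.54, adjusted p = 2.47e-05) and Col3a1 (1.37, adjusted p = 3.57e-05). Their list mean ran from 5.33 to 5.91 under nintedanib, 5.39 to 5.88 under vehicle and 4.79 to 4.92 in controls, again without overlap between damaged and healthy livers. Of 10 endothelial markers, Lyve1 (0.97, adjusted p = 0.00944) and Pecam1 (0.79, adjusted p = 0.0438) rose, with list means of 4.65 to 4.93, 4.86 to 5.19 and 4.62 to 4.78 in the same groups. Of 8 Kupffer cell markers, Cd163 (-0.88, adjusted p = 0.0128) and Id3 (-0.64, adjusted p = 0.0401) fell. Id3 did not pass with the run block (adjusted p = 0.0613), and with vehicle mice 76 to 81 only neither passed (adjusted p = 0.0895 for Cd163 and 0.0849 for Id3). The Kupffer list means were 5.43 to 5.92, 5.69 to 6.80 and 5.87 to 6.27. In vehicle mice against controls, 3 of the 8 Kupffer markers had positive differences, up to 1.72, though none of these passed. The median difference of that list was -0.04. The part of any of these leukocyte or resident cells in the Ccl5 and Cxcl16 values was not tested.

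Among neutrophil attractants of the CXCR2 axis, Cxcl1 spread most widely between mice. The standard deviation within groups was 1.02 for Cxcl1 and 0.42 for Cxcl2, and 0.21, 0.25 and 0.14 for Cxcl3, Cxcl5 and Cxcl15. Cxcl1 had 4.91, 5.40 and 8.57 (lowest, median, highest) under nintedanib, 5.07, 6.14 and 6.78 under vehicle, and 6.90, 6.00 and 5.93 in controls. Nintedanib mice 82, 83 and 85, at 8.57, 7.23 and 7.92, exceeded every other mouse of the series, while the other 7 nintedanib mice lay between 4.91 and 5.76, below all 3 controls. The group means hid this: the nintedanib minus vehicle difference was 0.05 ± 0.41 (limma, adjusted p = 0.985), with an interval of -0.81 to 0.90, and it was -0.67 (adjusted p = 0.958) within mice 83 to 94. The mean neutrophil marker level in mice 82, 83 and 85 was 3.84, 3.44 and 3.76, within the range of the other nintedanib mice.

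Cxcl2, a second neutrophil attractant, had 1.996, 2.48 and 3.12 under nintedanib, 2.41, 2.80 and 4.19 under vehicle, and 2.43, 2.22 and 2.06 in controls. Vehicle mouse 76 was the highest, and the nintedanib range covered the control range. Cxcl2 was 0.76 ± 0.26 higher in vehicle mice than in controls (limma, adjusted p = 0.129) and -0.49 ± 0.18 under nintedanib against vehicle (adjusted p = 0.249), which was -0.16 (adjusted p = 0.959) within mice 83 to 94. The mouse with the highest Cxcl1, nintedanib mouse 82, had the lowest Cxcl2. The receptor gene Cxcr2, carried by neutrophils, ran from 2.40 over a median of 3.43 to 4.89 under nintedanib, from 2.53 over 3.47 to 4.33 under vehicle, and stood at 3.23, 3.57 and 4.13 in controls. Cxcl3, Cxcl5 and Cxcl15 had group means between 1.96 and 2.49, and no member of this axis passed.

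**Figure D4:**
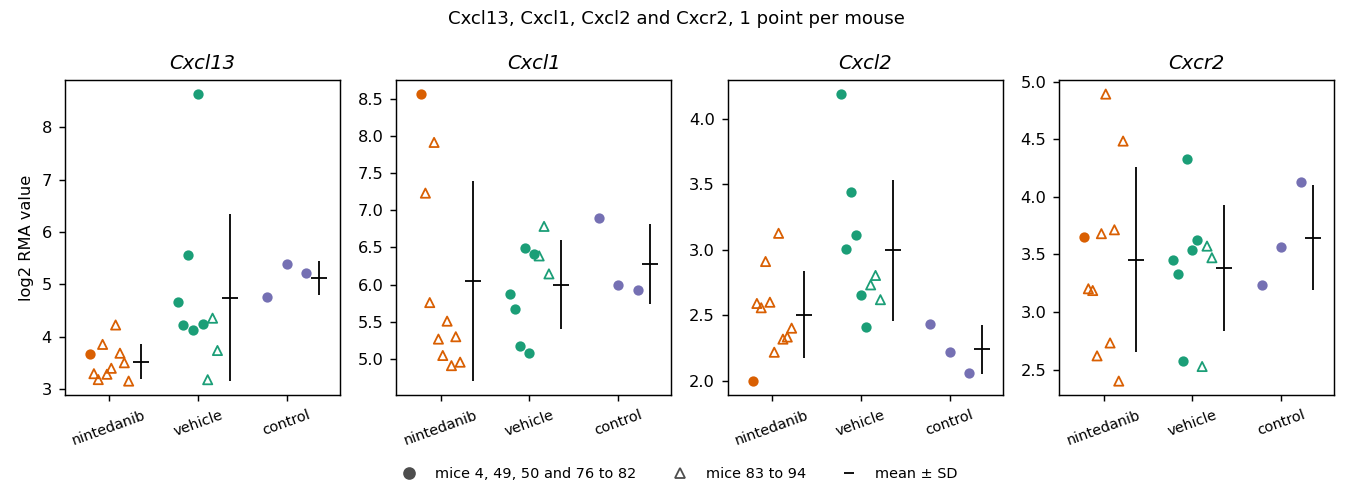
Log2 RMA value of Cxcl13, Cxcl1, Cxcl2 and Cxcr2 in each nintedanib, vehicle and control mouse, with bars for the group mean and SD; filled circles are controls and mice 76 to 82, open triangles mice 83 to 94. Vehicle mouse 80 stands alone for Cxcl13 at 8.63, and nintedanib mice 82, 83 and 85 stand above all others for Cxcl1.

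The promoters of Cxcl1, Cxcl2 and Cxcl3 are printed because these neighbouring genes encode ligands of the same receptor, and Cxcl1 had the widest spread of any member under nintedanib. NF-kappaB, a transcription factor of inflammation, is known to act on these promoters. The letters GGGNNTTTCC, a form of its binding motif, were searched on both strands over windows of 250 bases before to 50 bases after each gene's start, from RefSeq on GRCm38.p6. Matches are in capitals and the sequences run 5′ to 3′ on the + strand, for Cxcl1 at chr5:90890995-90891294, for Cxcl2 at chr5:90903649-90903948 and for Cxcl3 at chr5:90785851-90786150.
Cxcl1: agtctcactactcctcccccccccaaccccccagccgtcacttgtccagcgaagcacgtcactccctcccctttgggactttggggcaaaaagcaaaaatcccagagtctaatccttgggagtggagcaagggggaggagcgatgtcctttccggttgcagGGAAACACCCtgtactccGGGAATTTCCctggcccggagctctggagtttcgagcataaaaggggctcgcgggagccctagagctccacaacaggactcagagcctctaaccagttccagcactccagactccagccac
Cxcl2: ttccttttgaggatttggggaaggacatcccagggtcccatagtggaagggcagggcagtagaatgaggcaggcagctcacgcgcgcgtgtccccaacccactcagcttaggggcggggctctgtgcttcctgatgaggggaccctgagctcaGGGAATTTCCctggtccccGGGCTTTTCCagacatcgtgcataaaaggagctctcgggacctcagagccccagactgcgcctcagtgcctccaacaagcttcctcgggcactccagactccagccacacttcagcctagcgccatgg
Cxcl3: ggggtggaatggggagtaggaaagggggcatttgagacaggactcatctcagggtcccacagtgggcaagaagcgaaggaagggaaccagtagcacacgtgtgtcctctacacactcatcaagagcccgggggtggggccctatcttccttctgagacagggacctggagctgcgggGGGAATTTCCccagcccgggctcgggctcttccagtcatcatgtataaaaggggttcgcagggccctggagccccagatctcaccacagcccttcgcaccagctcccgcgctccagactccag
The windows of Cxcl1 and Cxcl2 held 2 matches each, and that of Cxcl3 held 1. The first match began at position -89 from the start in Cxcl1, -97 in Cxcl2 and -73 in Cxcl3, and the matches of one gene did not overlap. Among 35 members with a window, 6 held the letters (17.1%): these 3 and Ccl9, Ccl20 and Ccr3. Over all 32851 windows the share was 1.63%. The first share counts genes and the second counts windows, of which a gene can have several. Cxcl15, grouped here in the same axis and also on chromosome 5, had a window with 0 matches. Ccl5, Cxcl5 and Cxcl16 had no window and were not searched. A match is a run of letters and no measure of binding, and nothing about expression was read from it.

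Attractants of activated T cells act through CXCR3 and are induced by interferon-gamma. Cxcl9 had 4.24, 4.58 and 5.26 under nintedanib, 4.09, 4.88 and 5.67 under vehicle, and 4.80, 4.81 and 4.51 in controls. All 3 groups overlapped. Its differences were 0.17 in vehicle mice against controls (limma, adjusted p = 0.854) and -0.23 in nintedanib mice against vehicle (adjusted p = 0.739). Cxcl10 averaged 3.73 ± 0.49, 3.82 ± 0.34 and 3.59 ± 0.39 in nintedanib, vehicle and control mice (SD, n = 10, 9 and 3), and Cxcl11 averaged 3.09, 3.11 and 3.23.

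The receptor gene Cxcr3 had 2.28, 2.62 and 3.03 under nintedanib, 2.66, 2.95 and 3.29 under vehicle, and 3.05, 2.66 and 2.49 in controls. The groups overlapped. The nintedanib minus vehicle difference was -0.29 ± 0.11 over all mice (limma, adjusted p = 0.317) and -0.42 within mice 83 to 94 (adjusted p = 0.955). Within those mice Cxcl9 differed by -0.56 (adjusted p = 0.955). All 4 members of the CXCR3 axis had negative nintedanib minus vehicle differences, from -0.29 to -0.02, and none passed. In that comparison 6084 of all 13392 genes had negative differences.

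Cxcl13, the B cell attractant, carried the widest spread of all members. It had 3.15, 3.45 and 4.23 under nintedanib, 3.18, 4.24 and 8.63 under vehicle, and 4.77, 5.39 and 5.21 in controls. No nintedanib mouse reached the lowest control, whereas vehicle mice lay on both sides of the control range. Vehicle mouse 80, at 8.63, stood far above the other 8 vehicle mice, which ran from 3.18 to 5.56. The nintedanib minus vehicle difference was -1.22 ± 0.43 (limma, adjusted p = 0.231) and became -0.74 (adjusted p = 0.143) without mouse 80.

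Against controls, Cxcl13 under nintedanib differed by -1.60 ± 0.62 (limma, adjusted p = 0.151). The spread in that fit includes mouse 80, and without this mouse the same difference passed (adjusted p = 0.00153), as it did in a fit of nintedanib and control mice alone (adjusted p = 0.000163). By run, vehicle mice 92 to 94 averaged 3.76 ± 0.59 and vehicle mice 76 to 81 averaged 5.24 ± 1.74 (SD, n = 3 and 6). Their ranges overlapped, at 3.18 to 4.35 and 4.13 to 8.63, the latter with mouse 80. Nintedanib mice 83 to 91 averaged 3.51 ± 0.35 (SD, n = 9), and nintedanib mouse 82, of the earlier run, had 3.66. With the run block the difference from controls was -0.63 (adjusted p = 0.845). No control came from mice 83 to 94, so for these mice run and the contrast with healthy liver cannot be told apart.

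Mouse 80 stood high for many lists. It ranked 1 of 22 mice for the mean of B cell (4.21), Kupffer cell (6.80) and endothelial markers (5.19), and for the atypical receptor, receptor signalling and inducer lists. It ranked 2 for T cell, natural killer and dendritic cell markers, 5 for macrophage, 9 for hepatocyte, 14 for neutrophil, 17 for stellate cell and 22 for cholangiocyte markers. The B cell marker mean ran from 3.51 to 3.87 under nintedanib, 3.69 to 4.21 under vehicle and 3.49 to 3.60 in controls. In vehicle mice against controls 3 of 9 such markers rose, namely Blnk, Jchain and Ms4a1. The differences of 2 of the 9 were negative, down to -0.32, and neither of the 2 passed. With the run block Ms4a1 did not pass (adjusted p = 0.0552). Ms4a1, which encodes CD20, was at 4.56 in mouse 80. The part of any of these cell types in the Cxcl13 value was not tested. Cxcr5, the receptor gene for CXCL13 on B cells, averaged 2.54, 2.58 and 2.74 in nintedanib, vehicle and control mice and did not pass.

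Of the homeostatic receptors, Cxcr4, which retains leukocytes in marrow and tissue, had 2.39, 3.30 and 3.76 under nintedanib, 2.59, 3.15 and 3.92 under vehicle, and 2.68, 2.61 and 2.39 in controls. Most damaged livers exceeded the controls, with nintedanib mouse 89 and vehicle mouse 79 at or within their range. Its differences from controls were 0.65 ± 0.24 under nintedanib (limma, adjusted p = 0.135), passing without nintedanib mouse 89 (0.74, adjusted p = 0.0459), and 0.63 ± 0.25 under vehicle (adjusted p = 0.207). Ccr7, which guides dendritic cells and naive T cells to lymph nodes, averaged 2.85, 2.79 and 2.61 in nintedanib, vehicle and control mice and did not pass.

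Among receptors of mucosal and type 2 immunity, Ccr6 and Ccr3 were nearest to a difference. Ccr6, the receptor of CCL20 on B cells, dendritic cells and interleukin-17 producing T cells, had 2.22, 2.57 and 3.47 under nintedanib, 2.66, 2.85 and 3.72 under vehicle, and 2.47, 2.63 and 2.54 in controls. Vehicle mice all exceeded controls, though narrowly (2.66 against 2.63), and Ccr6 lay above the array median on only 5 of 22 arrays. The value of 3.47 in nintedanib mouse 91 stood high in its group. The nintedanib minus vehicle difference was -0.39 ± 0.15 (limma, adjusted p = 0.280) and -0.62 within mice 83 to 94 (adjusted p = 0.882). Its ligand gene Ccl20 averaged 2.86, 2.87 and 2.80 in nintedanib, vehicle and control mice.

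Ccr3, the eotaxin receptor of eosinophils, had 1.68, 1.91 and 2.49 under nintedanib, 1.66, 2.28 and 2.54 under vehicle, and 2.31, 2.36 and 2.48 in controls. Nintedanib mouse 89 was the 1 mouse of its group to reach the controls. The nintedanib minus control difference was -0.44 ± 0.16 (limma, adjusted p = 0.118) and passed without mouse 89 (-0.50, adjusted p = 0.0354). These values lie near the bottom of the scale. The eotaxin genes Ccl11 and Ccl24 did not pass in any comparison, at group means of 2.08 to 2.47 and 3.74 to 3.99.

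The remaining 12 members did not pass in any comparison. They comprise Ccl17, Ccl22 and their receptor gene Ccr4, which act on regulatory and type 2 T cells, and Ccl1, Ccl8 and Ccr8. They also hold the mucosal genes Ccl25, Ccl28, Ccr9 and Ccr10, and Cxcl14 and Cxcl17, for which no receptor is settled. Their differences ran from -0.17 (Ccl28) to 0.14 (Ccr10) in vehicle mice against controls, from -0.10 (Ccr8) to 0.13 (Cxcl14) in nintedanib mice against vehicle, and from -0.09 (Ccl17) to 0.21 (Ccr10) in nintedanib mice against controls.

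**Figure D5:**
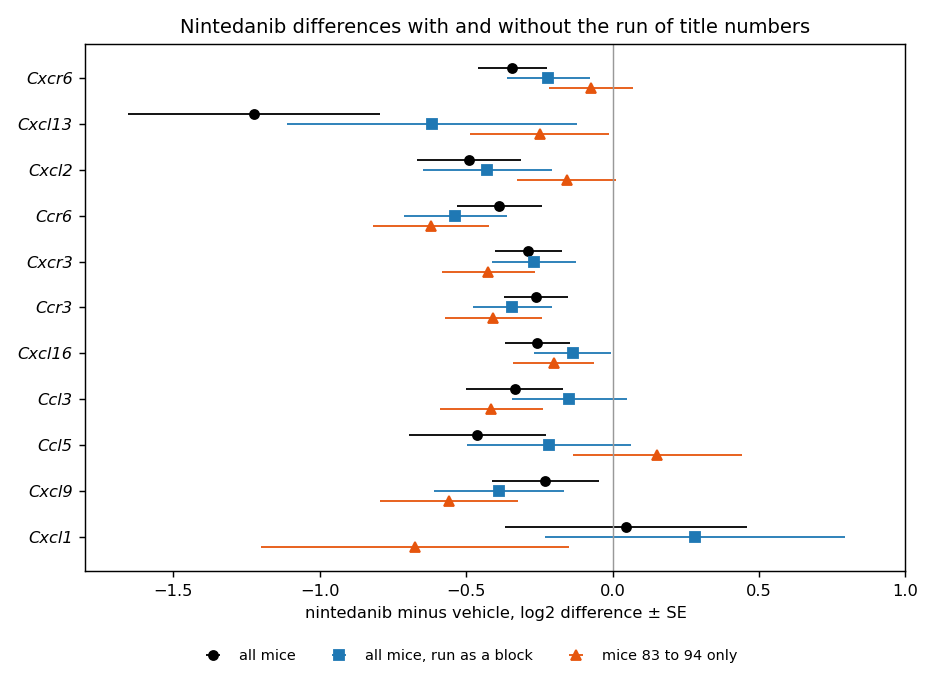
Nintedanib minus vehicle log2 difference with its standard error for the 9 members with the smallest p and for Cxcl9 and Cxcl1, over all mice, over all mice with the run block, and within mice 83 to 94. All members shown but Ccl5 and Cxcl1 lie left of 0 in all 3 fits, Cxcl13 moves from -1.22 to -0.25, and Ccl5 moves from -0.46 to 0.15.

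Set directly against each other, with group as a term beside run, mice 83 to 94 differed from the earlier mice in 0 of 49 members, where 1.87% of all genes passed. Before adjustment 3 did (Cx3cl1 at -0.32, Cxcl10 at 0.47 and Cxcl13 at -1.07), where 9.05% of all genes did. The adjusted p values of these 3 were 0.283, 0.475 and 0.542.

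Genes outside the symbol rule but tied to the family were counted as well. Of 10 atypical receptors and other chemokine-family genes with a value, 2 rose in vehicle mice against controls: Pf4, the platelet and macrophage chemokine CXCL4 (0.94 ± 0.21, adjusted p = 0.00944), and Cmtm7 (0.75 ± 0.20, adjusted p = 0.0449). Pf4 was also higher under nintedanib than in controls (0.85, adjusted p = 0.0113), and 0 of 10 changed between nintedanib and vehicle. Of 20 genes of chemokine receptor signalling, 0 passed in vehicle mice against controls and 0 between nintedanib and vehicle, and Rgs16, which shortens G protein signalling, was higher under nintedanib than in controls (2.18 ± 0.48, adjusted p = 0.00584), but not past the threshold with the run block (1.31, adjusted p = 0.337).

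Among 26 cytokines, receptors and regulators of the pathways known to induce or restrain chemokine genes, 0 passed in vehicle mice against controls. In nintedanib mice against vehicle, 1 was higher and 1 lower: Cebpb, a factor of the acute phase response (0.67 ± 0.08, adjusted p = 9.98e-05), and the cytokine gene Il1a (-0.98 ± 0.20, adjusted p = 0.0151). With the run block Cebpb passed at 0.72 (adjusted p = 0.00219) and Il1a did not, at -0.79 (adjusted p = 0.533). Within mice 83 to 94, where 0 of all genes passed, the differences were 0.77 (adjusted p = 0.0938) for Cebpb and -1.05 (adjusted p = 0.756) for Il1a. Against controls, 1 of the 26 was higher under nintedanib and 3 lower, where 2.87% of all genes were higher and 2.99% lower. Cebpb was the higher one (0.65), and the lower ones included Fos (-1.40, adjusted p = 0.0421) and Il1b (-0.91, adjusted p = 0.0438). Fos and Il1b did not pass with the run block, at -0.44 and -0.54 (adjusted p = 0.797 and 0.588). The median difference of the list between nintedanib and vehicle was -0.06, against 0.01 for all genes.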

How the data were processed

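Per the labels' protocols, total RNA of 20 mg of non-tumour liver was used for each mouse, on HT MG-430 arrays from Affymetrix. The authors deposited log2 values made by RMA with 1 custom probe set per Entrez gene, according to the series' design text. As RMA puts the probe intensities of all arrays on 1 common distribution, it hides a shift shared by every gene, and it compresses differences near background. The array medians of the deposited gene values still ran from 2.83 to 3.09. Any filtering of genes by the authors is not given in the sources. The number of arrays, above all of controls, limits the precision.

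Gene symbols were matched through Entrez IDs to RefSeq (GRCm38.p6), which named 13242 of 13392 genes. One limma model (version 3.58.1, R 4.3.3, lmFit and eBayes) held the 3 group means of all 22 arrays, 2-sided, with Benjamini-Hochberg adjustment over 13392 genes and a threshold of 0.05. Every adjusted p comes from limma. No array and no dim gene was left out. The script was tested on simulated data.

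The members, lists, runs and alternatives were chosen with earlier results of these data known. By the rule for naming, values per mouse were given for members past the threshold, for the 6 with the smallest p in each comparison and for the 6 with the highest mean. Up to 3 genes of each other list were named. Mice are separate animals by their titles. Values of 1 member and of 1 listed gene are not reported here, though both remain in the counts.

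Alternatives were leaving out the dimmest 25% of genes, median centring, array weights, a second quantile normalization, 2-group fits, a robust variance trend, thresholds of 0.01 and 0.10, the run block, single runs, leaving out nintedanib mice 89 and 91, and leaving out each mouse. The run block and single runs for genes of the other lists were added after seeing the data.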

Additional observations from a re-analysis of the deposited data

Results flagged for a closer look

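Among 98 sets of nintedanib or vehicle values, 8 held 1 mouse set off by a wide gap from its group (Dixon's gap ratio at the 95% level), where chance gives about 1 in 20. Under nintedanib, Ccl4 was lowest in mouse 91 (2.71, next 3.08) and Ccr3 highest in mouse 89 (2.49, next 2.11), the pair whose arrays stood apart. Mouse 83 was lowest for Ccl25 (3.47, next 3.84) and highest for Cxcl17 (3.07, next 2.41), and mouse 85 was lowest for Ccr10 (2.67, next 3.09). Under vehicle, Cxcl15 was highest in mouse 76 (2.77, next 2.54) and Cxcl5 in mouse 93 (2.65, next 2.05). Cxcl13 in vehicle mouse 80, at 8.63 with the next mouse at 5.56, was the flagged value with the widest gap on the log2 scale.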

How the results depend on the processing

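In vehicle mice against controls, 2 members and 338 genes passed. At a threshold of 0.01 these were 1 and 155, 581 genes passed at 0.10, and 1 member passed with vehicle mice 76 to 81 alone. Leaving out 1 mouse gave 1 to 3 members and 146 to 418 genes. In nintedanib mice against vehicle, 0 members and 92 genes passed. Genes numbered 21 at 0.01, 213 at 0.10, 6 with the run block, 60 without mice 89 and 91, and 0 within mice 83 to 94, where 695 had an unadjusted p under 0.05. Leaving out 1 mouse gave 49 to 230 genes and 0 members. In nintedanib mice against controls, 1 member and 784 genes passed. There were 2 members without the dimmest 25% of genes, in the 2-group fit, at 0.10, and without mice 89 and 91, and 352 genes at 0.01 and 244 with the run block. Leaving out 1 mouse gave 0 to 3 members and 379 to 852 genes. The cause of these shifts was not tested.

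Ccl5 in vehicle mice against controls stayed past 0.05 in every setting run, and its difference ran from 1.77 to 2.01 when 1 mouse was left out. Among the differences followed, signs turned for some that had not passed: between nintedanib and vehicle for Ccl5 (0.15 within mice 83 to 94), Ccl6 (-0.025 with median centring, -0.0046 with array weights) and Cxcl1 (-0.67 within mice 83 to 94), and between nintedanib and controls for Cxcl1 (0.14 with the run block, 0.046 without mice 89 and 91). Leaving out 1 mouse turned Ccl9 (-0.0022 to 0.12) and Cxcl1 (-0.45 to 0.035) in vehicle mice against controls, Ccl6 (-0.080 to 0.074) and Cxcl1 (-0.24 to 0.17) in nintedanib mice against vehicle, and Cxcl1 (-0.51 to 0.080) in nintedanib mice against controls. No paired analysis was possible because title numbers are not shared between groups. With 3 controls and dim probe sets, small differences could not be seen.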
